A study of Homo sapiens with 6 samples.

Results

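The squamous lineage transcription factors examined here were 10 genes taken by symbol: TP63, TP73, SOX2, PAX9, KLF4, KLF5, GRHL2, GRHL3, TFAP2A and ZNF750. Each symbol matched 1 row of the table, which listed 58884 genes. Their RNA was measured in KYSE70, a cell line established from a human squamous carcinoma of the esophagus (ESCC) with a mutant NFE2L2 gene, and in NRF2null-KYSE70, a line derived from KYSE70 by cutting NFE2L2 with CRISPR-Cas9. NFE2L2 encodes NRF2, a transcription factor that switches on antioxidant and detoxifying genes. Both lines were cultured without treatment, and each gave 3 libraries of total RNA. NRF2null-KYSE70 is a single clone, so its libraries carry the spread between cultures or preparations but say nothing of how clones vary. The study reports a faint, smaller NRF2 band in this clone and states that NRF2 was not wholly removed. What is compared is this clone and its parent, for which the cut in NFE2L2 and other features of the clone cannot be told apart.

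In stratified epithelia such as the lining of the esophagus, a small set of transcription factors holds cells in the squamous lineage. p63, the product of TP63, maintains the proliferative basal layer. SOX2 acts with it in the esophagus, and both are often gained in squamous carcinomas. KLF5 drives growth of basal cells, while KLF4, GRHL3 and ZNF750 take part as cells leave the basal layer and differentiate. PAX9 is needed for the maturation of oral and esophageal epithelium, and TFAP2A and GRHL2 support epithelial gene expression.

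The libraries held 52072801 to 63975313 reads in genes, with 21756 to 22466 genes detected. No library repeated another of its line (chi-square over degrees of freedom at least 4.588 and at most 23.44), and the NRF2null-KYSE70 library numbered 1 stood farthest from the others of its line. NFE2L2, the targeted gene, checked the labels: its normalized counts in NRF2null-KYSE70 were 61.4% of those in KYSE70 (log2 fold change -0.71, SE 0.049, limma adjusted p = 9.37e-08). Of 10 markers of squamous epithelium, 9 were tested. KRT5, a basal keratin, and TRIM29, a p63-associated protein, were abundant in both lines, while CDH3 and LY6D were near 0. The markers summed to 323589 to 330590 normalized counts in KYSE70 and 237747 to 243596 in NRF2null-KYSE70. KRT5 alone went from a mean of 209917 to 124640. Of the tested markers 2 were higher (KRT6A and KRT17) and 6 lower, while over all tested genes 29.3% were higher and 28.3% lower. Columnar epithelial markers summed to between 0.889 and 18.3 normalized counts in any library.

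Expression is given in normalized counts, in which the reads of a gene are scaled by the size factor of its library, and compared with limma on log2(normalized count + 1). A gene passed the test at a Benjamini-Hochberg adjusted p under 0.05 over all 15994 genes with a mean of at least 10. Of the 10 factors, 9 were tested. TP63, TP73, KLF5 and GRHL3 were lower in NRF2null-KYSE70, PAX9 and SOX2 were higher, and KLF4, TFAP2A and ZNF750 did not pass. These 6 of 9 compare with 57.6% of all tested genes. The share lower was 28.3% and the share higher was 29.3% over all genes. GRHL3 alone also changed by a log2 fold change of 1 or more, a cut-off that 14.7% of all tested genes passed. In 7 of the 9 the libraries separated fully by line, as they did for 63.4% of all tested genes. With this background, the counts do not set the factors apart from other genes. Their median log2 fold change was -0.18, against -0.0070 over all tested genes.

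**Figure D1:**
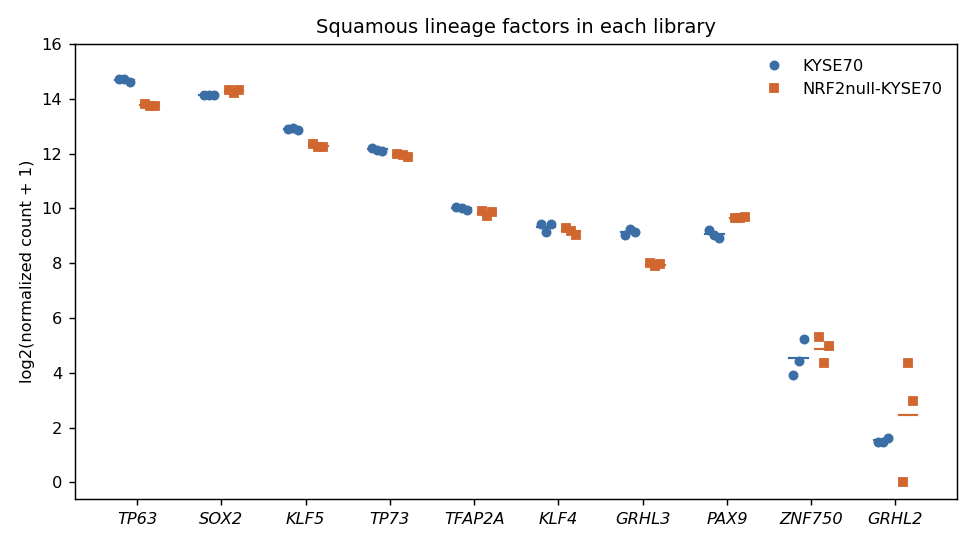
The 10 factors along the horizontal axis against log2(normalized count + 1) on the vertical axis, with 1 point per library (circles for KYSE70, squares for NRF2null-KYSE70, 3 each) and short horizontal bars for the means of these log2 values. TP63, KLF5 and GRHL3 lie lower in every NRF2null-KYSE70 library and PAX9 lies higher, while the points of KLF4 and ZNF750 overlap.

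Levels of different genes were compared per kilobase of annotated exon. SOX2 stood highest in both lines, at 7202 ± 42.4 normalized counts per kilobase (SD, n = 3) in KYSE70 and 7989 ± 325 in NRF2null-KYSE70. In KYSE70 only 2.02% of the tested protein-coding genes stood above it. TP63 came next, at 3522 ± 121 and 1858 ± 40.4, followed by KLF5 at 2075 ± 38.2 and 1357 ± 61.9, and TP73 at 672 ± 28.3 and 578 ± 18.0. These 4 kept their order in both lines. Below them, KLF4 was at 176 ± 18.9 per kilobase in KYSE70, GRHL3 at 132 ± 8.89, TFAP2A at 125 ± 4.47 and PAX9 at 94.0 ± 10.4. GRHL3 and TFAP2A did not differ beyond their spread there. In NRF2null-KYSE70 the order was KLF4 at 156 ± 12.6, PAX9 at 143 ± 3.32, TFAP2A at 111 ± 6.39 and GRHL3 at 57.6 ± 2.06, with the libraries of KLF4 and PAX9 overlapping. PAX9 and GRHL3 thus exchanged places. ZNF750, at 7.60 ± 3.69 and 9.39 ± 3.01 per kilobase, and GRHL2, at 0.314 ± 0.030 and 1.46 ± 1.64, were the lowest in both lines.

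TP63, on chromosome 3 from 189631389 to 189897276 (hg38, plus strand, ENSG00000073282), encodes the defining factor of squamous basal cells. Its normalized counts were 26829, 26896 and 25297 in KYSE70 and 14222, 13826 and 13628 in NRF2null-KYSE70. Each NRF2null-KYSE70 library was thus far below each KYSE70 library. The means were 26341 ± 904 and 13892 ± 302 (SD, n = 3), so that the clone held 52.7% of the parental level, or 1.90-fold less. The log2 fold change was -0.92 (SE 0.045, 95% interval -1.02 to -0.82, limma adjusted p = 3.63e-09). The 40 nearest protein-coding genes on the chromosome went the other way, with a median log2 fold change of 0.27. Beneath the whole-gene count, TP63 makes 2 kinds of transcript. Those that start at the first promoter encode the TAp63 proteins with a full transactivation domain, and those that start inside the gene encode ΔNp63, the form that predominates in squamous cells. In GENCODE, 7 of the 12 coding transcripts start at internal positions, 5 of them at the start site 158.4 kb into the gene. A gene-level count adds all of them, and the share of each form was not analysed here.

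The promoter window at the first start is shown because TP63 is the defining factor of the lineage. The windows printed here are RefSeq sequences on GRCh38.p14, 250 bases before and 50 bases after an annotated start, written 5′ to 3′ on the strand of the gene. Capitals mark the core of the antioxidant response element bound by NRF2 (TGACNNNGC) and the GC box bound by Sp and KLF factors (GGGCGG), on either strand. The window of TP63 covers chr3:189631139-189631438 on the plus strand. It holds neither motif, so it is in lower case throughout. No window at the internal starts, from which the ΔNp63 forms come, was examined for either motif.
TP63 first promoter: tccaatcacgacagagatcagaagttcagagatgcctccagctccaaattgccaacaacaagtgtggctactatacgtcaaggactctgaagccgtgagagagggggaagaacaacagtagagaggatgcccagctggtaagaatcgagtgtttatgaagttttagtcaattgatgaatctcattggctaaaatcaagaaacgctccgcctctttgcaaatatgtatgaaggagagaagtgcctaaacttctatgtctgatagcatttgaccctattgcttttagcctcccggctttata

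TP73, on chromosome 1 from 3652516 to 3736201 (plus strand, ENSG00000078900), encodes p73, the closest relative of p63. Normalized counts of TP73 were 4762, 4475 and 4400.4 in KYSE70 and 4018, 3941 and 3779 in NRF2null-KYSE70. The lines did not overlap, but the gap was small: the clone kept 86.1% of the parent's count (log2 fold change -0.22, SE 0.052, limma adjusted p = 0.00343). TP73 shares 633 exon bases with TP73-AS1 on the opposite strand, whose log2 fold change was -0.051 (adjusted p = 0.73).

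SOX2, a single-exon gene on chromosome 3 from 181711925 to 181714436 (plus strand, ENSG00000181449), had normalized counts of 18186, 17976 and 18111 in KYSE70. In NRF2null-KYSE70 the counts were 20424, 19133 and 20647. All libraries of the clone were higher, though by 1.11-fold in the mean (log2 fold change 0.15, SE 0.045, limma adjusted p = 0.0132). The 40 nearest protein-coding genes had a median log2 fold change of 0.15 as well. When that median was subtracted, the SOX2 value was -0.0054, and it was 0.025 after quantile normalization, and neither passed. It was also not called without KYSE70 library 2 (adjusted p = 0.054) or NRF2null-KYSE70 library 3 (adjusted p = 0.059). SOX2-OT, a long noncoding RNA whose gene contains SOX2 in an intron on the same strand, was counted as a gene of its own. Counts of SOX2-OT were 11478, 12016 and 11661 in KYSE70 and 5646, 6097 and 6015 in NRF2null-KYSE70. SOX2-OT thus kept 50.5% of its level (log2 fold change -0.99, SE 0.048, adjusted p = 3.44e-09), and the annotation gives it no exon base in common with SOX2. SOX21, the paralog of SOX2 with the highest normalized count, had a log2 fold change of -0.25 (adjusted p = 0.00268).

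PAX9, on chromosome 14 from 36657568 to 36679362 (plus strand, ENSG00000198807), a paired-box factor lost in many esophageal carcinomas, rose most of the tested factors. PAX9 normalized counts were 597, 525 and 479.8 in KYSE70 and 796, 809 and 833 in NRF2null-KYSE70. The lowest library of the clone stood well above the highest of the parent, and the mean was 1.52-fold higher (534 ± 59.0 against 813 ± 18.9, SD, n = 3). The log2 fold change was 0.61 (SE 0.097, 95% interval 0.40 to 0.82, adjusted p = 0.00014), whereas the 40 nearest protein-coding genes had a median of -0.0086. SLC25A21, a mitochondrial carrier gene that shares 1442 exon bases with PAX9 on the opposite strand, had 103 ± 11.2 and 119 ± 37.8 normalized counts, and its log2 fold change of 0.16 did not pass (adjusted p = 0.59). The second PAX9 window, chr14:36661610-36661909 on the plus strand, is shown because PAX9 had the largest rise among the tested factors. It holds GC boxes 58 and 16 bases before the start, in capitals, and no antioxidant response element core.
PAX9 second promoter: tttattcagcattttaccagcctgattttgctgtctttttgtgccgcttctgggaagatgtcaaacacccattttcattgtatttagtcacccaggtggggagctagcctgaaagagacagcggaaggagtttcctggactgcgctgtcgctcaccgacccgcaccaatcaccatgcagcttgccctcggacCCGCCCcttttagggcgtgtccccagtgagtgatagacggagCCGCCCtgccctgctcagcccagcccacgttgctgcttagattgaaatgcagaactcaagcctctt

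KLF5, on chromosome 13 from 73054976 to 73077541 (plus strand, ENSG00000102554), drives growth of basal epithelial cells. In KYSE70 the KLF5 normalized counts were 7691, 7739 and 7475, and in NRF2null-KYSE70 they were 5254, 4859 and 4859.8. The libraries did not overlap and the clone retained 65.4% (log2 fold change -0.61, SE 0.049, 95% interval -0.72 to -0.51, adjusted p = 3.42e-07). As for TP63, the 40 nearest protein-coding genes had a median above 0, at 0.20. KLF4, on chromosome 9 from 107484852 to 107490482 (minus strand, ENSG00000136826), which promotes terminal differentiation, did not pass. The KYSE70 libraries had 685, 563 and 681 normalized counts and those of NRF2null-KYSE70 had 616, 579 and 524, so the lines overlapped. The log2 fold change was -0.16 with a 95% interval of -0.39 to 0.07 (adjusted p = 0.21), which leaves room for a small change in either direction. With the median of the 40 nearest genes subtracted it was 0.094. KLF4 shares 357 exon bases with an opposite-strand noncoding gene not analysed here. Among the KLF paralogs, KLF13 had the highest normalized count, though not the highest per kilobase, and a log2 fold change of -0.081 (adjusted p = 0.26). KLF9, a glucocorticoid-responsive gene, and KLF15 rose. KLF9 was 2.04-fold higher (log2 fold change 1.02, adjusted p = 3.91e-06), and the log2 fold change of KLF15 was 1.45 (adjusted p = 0.000204), from 94.4 ± 37.4 to 247 ± 5.79 normalized counts (SD, n = 3).

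GRHL3, on chromosome 1 from 24199558 to 24364482 (plus strand, ENSG00000158055), a grainyhead factor needed to form the epidermal barrier, fell most of the tested factors. Its normalized counts were 526, 602 and 566 in KYSE70 and 254, 236 and 248 in NRF2null-KYSE70. Each library of the clone was far below each library of the parent, and the mean was 2.30-fold lower (565 ± 37.9 against 246 ± 8.77, SD, n = 3). The log2 fold change was -1.20 (SE 0.109, 95% interval -1.43 to -0.96, adjusted p = 1.06e-06), with a median of -0.0093 for the 40 nearest protein-coding genes. STPG1, which overlaps GRHL3 on the opposite strand without a common exon base, moved the other way, with a log2 fold change of 0.64 (adjusted p = 5.5e-05). GRHL1, the other grainyhead gene with an appreciable level, had 178, 184 and 122 normalized counts in KYSE70 and 228, 239 and 199.8 in NRF2null-KYSE70, and it rose (log2 fold change 0.48, adjusted p = 0.0372). Per kilobase, GRHL3 made up 86.5% ± 2.55 (SD, n = 3) of the family in KYSE70 and 66.2% ± 3.38 in NRF2null-KYSE70. GRHL1 took 13.2% and 32.1%. The exact permutation p of the GRHL3 share, two-sided, was 0.1, the smallest possible.

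RefSeq gave windows for 8 of the 10 factors, 14 windows in all, and 1 of them held the antioxidant response element core: the second window of GRHL3, at chr1:24322790-24323089 on the plus strand, where the match lies 235 bases before the start. Of all 34943 RefSeq promoter windows of the same length, 13.3% hold this core. The first window of GRHL3, chr1:24319107-24319406, holds a GC box 55 bases before the start. Both are shown because GRHL3 had the largest change. They lie inside the GENCODE span of GRHL3, which starts at 24199558, and no window covered that start. GC boxes were found in 7 of the 14 windows (44.9% of all windows), CACCC boxes (CCACCC, bound by KLF factors) in 6 (34.3% of all), and the E-box CACGTG in 2 (7.23% of all). These matches are descriptions of the letters, not of binding.
GRHL3 first promoter: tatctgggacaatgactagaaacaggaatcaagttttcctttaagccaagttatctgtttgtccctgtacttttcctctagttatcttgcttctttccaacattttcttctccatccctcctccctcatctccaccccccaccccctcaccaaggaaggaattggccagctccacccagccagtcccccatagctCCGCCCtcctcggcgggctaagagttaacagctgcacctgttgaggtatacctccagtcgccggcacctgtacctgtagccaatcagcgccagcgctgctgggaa
GRHL3 second promoter: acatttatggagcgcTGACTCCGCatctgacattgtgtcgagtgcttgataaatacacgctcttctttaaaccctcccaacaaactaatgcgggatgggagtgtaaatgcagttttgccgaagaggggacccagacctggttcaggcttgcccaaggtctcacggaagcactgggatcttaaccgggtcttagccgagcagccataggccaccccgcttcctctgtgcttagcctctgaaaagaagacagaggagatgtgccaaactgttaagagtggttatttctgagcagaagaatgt

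TFAP2A, on chromosome 6 from 10393186 to 10419659 (minus strand, ENSG00000137203), encodes AP-2α, a factor of ectodermal epithelia. Its normalized counts were 1059, 1039.5 and 988 in KYSE70 and 946, 850.2 and 935 in NRF2null-KYSE70. The lines did not overlap, yet the difference did not pass (log2 fold change -0.18, SE 0.077, 95% interval -0.34 to -0.01, adjusted p = 0.066). It passed under total scaling (-0.25), with the median of its 40 nearest genes subtracted (-0.35) and without NRF2null-KYSE70 library 1 (adjusted p = 0.043). TFAP2A shares exon bases with the opposite-strand genes TFAP2A-AS1 (438 bases) and TFAP2A-AS2 (941 bases), of which TFAP2A-AS1 was lower (log2 fold change -0.63, adjusted p = 0.0275). Its paralog TFAP2C, which encodes AP-2γ, rose 3.36-fold. TFAP2C normalized counts were 232, 174 and 197 in KYSE70 and 724, 676 and 627 in NRF2null-KYSE70 (log2 fold change 1.75, SE 0.128, adjusted p = 1.41e-07). Per kilobase, TFAP2A made up 65.1% ± 3.29 (SD, n = 3) of the family in KYSE70 and 32.9% ± 2.05 in NRF2null-KYSE70. TFAP2C took 34.7% and 66.7%. The order in the clone depended on the division by annotated exon length, 8220 bases for TFAP2A and 3001 for TFAP2C. In normalized counts TFAP2A stood above TFAP2C in every library of both lines. The family summed to 193 ± 13.1 and 337 ± 18.5 normalized counts per kilobase. The exact permutation p of the TFAP2A share, two-sided, was 0.1, again the smallest possible.

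**Figure D2:**
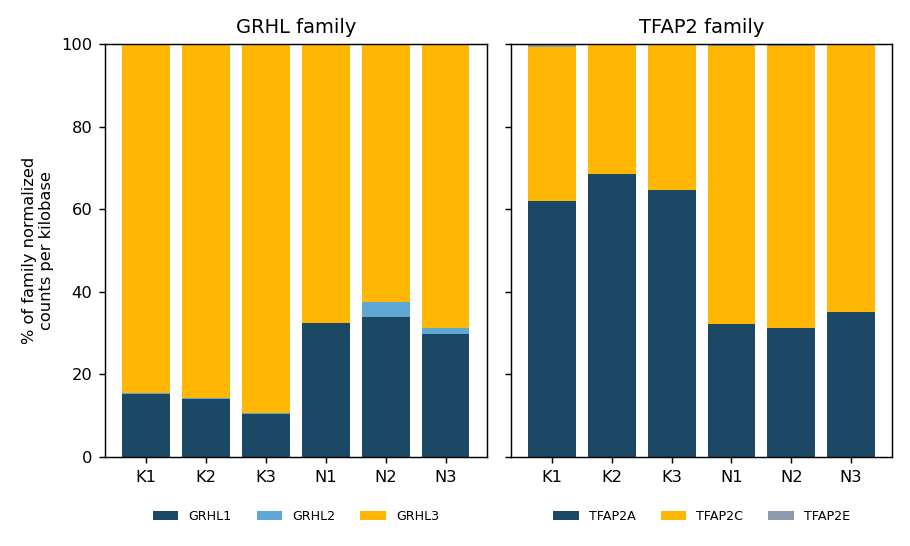
Share of each family member, in percent of the family's summed normalized counts per kilobase, in each of the 6 libraries (K1 to K3 are KYSE70 and N1 to N3 are NRF2null-KYSE70), for the GRHL and TFAP2 families. The mean share of GRHL3 is 86.5% in KYSE70 and 66.2% in NRF2null-KYSE70, and that of TFAP2A 65.1% and 32.9%. Shares depend on the annotated exon lengths. In normalized counts not divided by length, TFAP2A stands above TFAP2C in every library.

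ZNF750 and GRHL2 had few reads. ZNF750, on chromosome 17 from 82829434 to 82840022 (minus strand, ENSG00000141579), a zinc-finger factor of late differentiation that is often mutated in ESCC, had 16, 23 and 35 reads in KYSE70 and 38, 20 and 27 in NRF2null-KYSE70. The lines overlapped, and the 95% interval of the log2 fold change, -0.59 to 1.29, takes in both no change and a 2-fold rise (estimate 0.35, adjusted p = 0.52). The estimate was 0.040 without KYSE70 library 1 and 0.70 without KYSE70 library 3. ZNF750 also shares 222 exon bases with TBCD, a tubulin chaperone gene on the opposite strand at 6135 ± 70.3 and 7009 ± 444 normalized counts in the parent and the clone (SD, n = 3). Whether reads were counted by strand was not stated, so the few reads of ZNF750 and those of TBCD cannot be told apart. GRHL2 (ENSG00000083307), a grainyhead factor that activates E-cadherin and other junction genes, had 2 reads in each KYSE70 library. In NRF2null-KYSE70 it had 0, 20 and 6. Each KYSE70 library was under the floor of 3 reads, the limit that a count of 0 allows, so a level under it cannot be told from none. Its mean was under 10, so it was not tested.

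**Figure D3:**
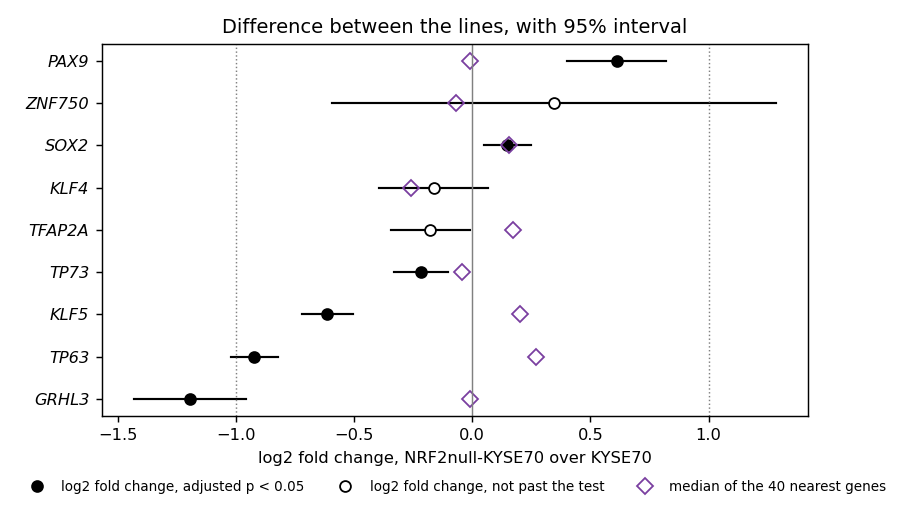
Log2 fold change of NRF2null-KYSE70 over KYSE70 for the 9 tested factors, with its 95% interval (limma, 3 libraries per line); filled points passed the test, open points did not, and diamonds are the median of the 40 nearest protein-coding genes. GRHL3 (-1.20), TP63 (-0.92) and KLF5 (-0.61) lie to the left of their neighbours and PAX9 (0.61) to the right, while SOX2 coincides with its neighbours at 0.15.

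The profiles most like that of TP63 over the 6 libraries, by Pearson's r of log2(normalized count + 1) among 11992 genes, were those of RCE1 (r = 0.9999), TMTC3 (0.9998) and CAND1 (0.9995). For GRHL3 they were PLCH2 (0.9994), TGIF2 (0.999) and HNRNPDL (0.9985). The points fall into 2 lines, so an r of this kind mainly reflects the difference between the lines, and these are descriptions only.

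The wider families and programmes were followed on lists of genes with known roles. Of 25 paralogs of the factors, 16 were tested, of which 7 were higher and 2 were lower, with a median log2 fold change of 0.13. This is close to the 57.6% of all tested genes that passed. TFAP2C, KLF15 and KLF9, given above, rose past a log2 fold change of 1. SOX1, a neural relative of SOX2 chosen after its values were seen, fell past it (-1.32, adjusted p = 0.0062), from 298 to 117 reads over the libraries of each line. Of 25 other regulators of squamous and epithelial cells, 21 were tested, of which 8 were higher, 11 were lower and 8 changed by a log2 fold change of 1 or more, with a median of -0.41. Over all tested genes 57.6% passed and 14.7% passed both cut-offs, and the difference from this background was not tested. FOXE1, a forkhead factor of foregut epithelium, had 269, 282 and 248 normalized counts in KYSE70 and 1.01, 8.83 and 1.14 in NRF2null-KYSE70 (log2 fold change -6.26, adjusted p = 5.64e-07), so the transcript was close to absent from each library of the clone, and 2 of them were under the floor of 3 reads. MAF, a bZIP factor of late differentiation, went from 1057, 1100.3 and 1021 to 290.1, 304 and 405 (log2 fold change -1.68, adjusted p = 1.24e-07). PRDM1, which encodes BLIMP1, a repressor active in the upper layers, rose 4.19-fold, from 520.3, 478 and 471 to 2179, 2084 and 1897 (log2 fold change 2.06, adjusted p = 4.65e-10). BARX2, a homeobox factor, rose 3.38-fold, from 583, 537 and 653 to 2099.6, 1967 and 1932 (log2 fold change 1.76, adjusted p = 2.86e-09).

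A list of 20 genes held markers of basal cells and known targets of p63. All were tested, of which 10 were higher and 5 were lower, with a median log2 fold change of 0.75. Over all tested genes 29.3% were higher and 28.3% lower, and the difference from this background was not tested. ITGA3, an integrin that anchors basal cells to the basement membrane, rose 3.38-fold (log2 fold change 1.75, adjusted p = 7.19e-10), and IGFBP3, a secreted binder of insulin-like growth factors that p63 can repress, rose 2.72-fold (1.45, adjusted p = 4.2e-10). KRT14, a basal keratin at a low level, had 38.2, 34.5 and 66.4 normalized counts in KYSE70 and 140.0, 112 and 217 in NRF2null-KYSE70 (1.74, adjusted p = 0.000316). Its partner KRT5, chosen after its values were seen, fell from 209917 ± 2822 to 124640 ± 3103 normalized counts (SD, n = 3; log2 fold change -0.75, adjusted p = 5.41e-08). Of the list, 5 genes that rose and 0 that fell also changed by a log2 fold change of 1 or more. Over all tested genes 14.7% passed both cut-offs, in either direction.

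A list of 13 epithelial genes taken as targets of grainyhead factors held junction genes and others. Of these, 11 were tested, of which 6 were higher, 1 was lower and 4 did not pass. Their median log2 fold change was 0.26. The number that passed is close to the 57.6% of all tested genes. SPINT1, a membrane protease inhibitor, rose 2.13-fold (log2 fold change 1.09, adjusted p = 8.91e-09). CDH1, which encodes E-cadherin and was chosen after its values were seen, rose 1.52-fold (0.60, adjusted p = 9.45e-06). CLDN7 and RAB25 were too low to test. CLDN7 held 15 reads over the libraries of each line. RAB25 held 5 over those of KYSE70, and 0, 20 and 10 in the single libraries of NRF2null-KYSE70.

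Of 29 late differentiation genes, 10 were tested and 19 had a mean under 10, among them 5 with no read in any library. Other genes of the list were abundant. The list summed to 29586 to 33072 normalized counts in KYSE70 and 49124 to 66542 in NRF2null-KYSE70. IVL, KRT1 and LOR, hallmarks of cornifying cells, held 7, 1 and 6 reads over the KYSE70 libraries and 11, 0 and 0 over those of NRF2null-KYSE70. Of the 10 tested genes, 4 were higher and 1 was lower, against 57.6% of all tested genes that passed, with a median log2 fold change of 0.15. FLG, which encodes filaggrin, rose 5.17-fold, from 4872, 3755 and 3928 to 28698, 18179 and 18086 (log2 fold change 2.35, adjusted p = 3.62e-08), and library 1 of the clone was the highest. EMP1, an epithelial membrane protein of suprabasal cells, rose 4.71-fold (2.23, adjusted p = 6.65e-11). KRT4 and KRT13, the keratin pair of the suprabasal esophagus, went in opposite directions. KRT4 had 13.3, 39.0 and 36.9 normalized counts in KYSE70 and 158, 195 and 170.1 in NRF2null-KYSE70 (2.65, adjusted p = 3.3e-05). KRT13 had 12304, 12301 and 12865 against 3818, 4104 and 4506, or 33.2% of the parental level (-1.59, adjusted p = 3.08e-10).

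**Figure D4:**
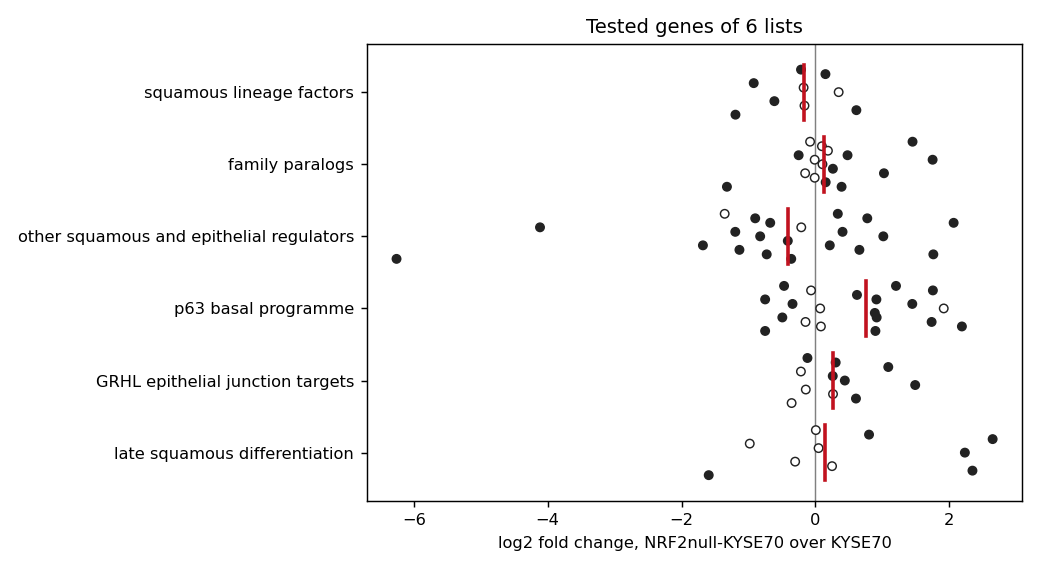
Log2 fold change (NRF2null-KYSE70 over KYSE70) of every tested gene in 6 lists; filled points passed the test, open points did not, and red lines are list medians. The squamous lineage factors have a median of -0.18, other regulators -0.41, and the p63 basal programme 0.75, with points on both sides of 0 in all lists.

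Markers of other cell types were measured beside these results. Fibroblast markers summed to 1384 to 1618 normalized counts in KYSE70 and 485 to 638 in NRF2null-KYSE70, carried by COL1A1 and COL3A1, while COL1A2 and DCN had no read. PDGFRB went the other way, with 0 reads in each KYSE70 library and 12, 15 and 14 in NRF2null-KYSE70. Blood cell markers summed to 12.7 to 36.9 and 46.7 to 58.2, and PTPRC, the only marker tested among them, held 1 read over the KYSE70 libraries and 125 over those of NRF2null-KYSE70. CD79A, a B cell marker, went from 34 reads to 1. Endothelial markers summed to 133 to 149 and 275 to 450.3, nearly all from VWF, with KDR at no read. Neuroendocrine markers summed to 271 to 327 and 196 to 203. Both lines were cultured carcinoma cells rather than tissue, so reads of these markers do not show that such cells were present. Bulk RNA gives no count of cells, and the part of these genes in the differences above was not tested.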

How the data were processed

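RNA-seq was performed on total RNA from KYSE70 and NRF2null-KYSE70, with 3 libraries each. Per the labels and methods, the authors checked reads with FastQC (0.11.5), trimmed them with cutadapt (1.12), aligned them to hg38 with STAR (2.6.90c), counted them per gene with featureCounts (1.5.1) and normalized the counts with DESeq2. The deposited values were therefore a signal in normalized counts. The strand setting and the rule for reads with several alignments are not given in the sources used here, so overlapping genes may share reads. Libraries are numbered by their order in the table, whose columns name only the line. Positions, exon lengths and overlaps came from GENCODE 44 on hg38.

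Divided by what 1 read is worth in its library, every deposited value came out whole (100% at a tolerance of 0.1 read), so whole reads were recovered. Floors (3 reads per library) cover counting error only. Log2(normalized count + 1) was tested with limma (3.58.1, R 4.3.3; lmFit and eBayes with a trend), two-sided, over 15994 genes with a mean of at least 10, with Benjamini-Hochberg adjustment. This scale understates changes of genes with few reads. Nothing in the labels says that libraries came from separate cultures, so p-values measure the spread between these libraries, which may be technical. On the recovered reads, DESeq2 (1.42.0) called 2341 and edgeR (4.0.16) 2350 genes past an adjusted p of 0.05 and an absolute log2 fold change of 1, against 2344 with limma. Alternatives also covered other scalings, pseudocounts of 0.1 and 5, filters, each library left out, and centring on the median of the 40 nearest protein-coding genes (mean 50 or more). Scripts were tested on simulated data.

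The members and lists were chosen with earlier results of these data known. Named genes were the 10 factors, NFE2L2, genes overlapping the factors, their paralogs with the highest counts, the 3 closest profiles to TP63 and GRHL3, and, from each list, at most 4 genes past both thresholds with a mean of at least 100. Some genes and a list under this rule are not reported here. Others are marked as chosen after their values were seen, or are cell type markers or examples of genes near 0.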

Additional observations from a re-analysis of the deposited data

How the results depend on the processing

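Each value was recomputed under 17 to 19 alternatives. TP63 (log2 fold change -1.19 to -0.91), GRHL3 (-1.27 to -1.15), KLF5 (-0.82 to -0.60), PAX9 (0.54 to 0.69) and TP73 (-0.29 to -0.17) kept their direction and passed the test in all 18. ZNF750 and KLF4 passed in none of theirs, but KLF4 reversed to 0.094 when the median of neighbouring genes was subtracted. Without single libraries KLF4 ranged from -0.26 (without KYSE70 library 2) to -0.10 (without NRF2null-KYSE70 library 3), and ZNF750 from 0.040 (without KYSE70 library 1) to 0.70 (without KYSE70 library 3). SOX2 reversed there to -0.0054 and no longer passed after quantile normalization (0.025), total scaling (0.073) or limma without the trend (0.15). Without single libraries it ranged from 0.13 to 0.18, and it was not called without KYSE70 library 2 (adjusted p = 0.054) or NRF2null-KYSE70 library 3 (0.059). TFAP2A passed under total scaling (-0.25), with the neighbours' median subtracted (-0.35) and without NRF2null-KYSE70 library 1 (adjusted p = 0.043), and ranged from -0.21 to -0.13 without single libraries. The number of factors called ranged from 5 to 7 without single libraries and was 1 with the fold cut-off. Without a filter, 8 late differentiation genes passed in place of 5 and 1 neuroendocrine or tuft factor in place of 0. With a filter at 50, 1 mesenchymal factor passed in place of 3, and 1511 genes passed both thresholds in place of 2344, as fewer genes were tested. Without the fold cut-off 9206 passed. Where no value shows a cause, the cause was not tested. GRHL2, with 2 reads in each KYSE70 library, was under the floor there, and how far depth limits ZNF750 was not tested. No paired analysis was possible because the column headings hold the cell line alone.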

Other observations

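Factors of other lineages were mostly low in both lines. Of 15 columnar lineage factors, 7 were tested, of which 1 was higher and 2 were lower, with a median log2 fold change of -0.15. Over all tested genes 57.6% passed, with 29.3% higher and 28.3% lower, and the difference from this background was not tested. FOXA1, a forkhead factor of gut and lung epithelium, had 306, 315 and 247 normalized counts in KYSE70 and 95.3, 146 and 78.8 in NRF2null-KYSE70, so the lines did not overlap (log2 fold change -1.47, limma adjusted p = 7.6e-05). NKX2-1, a lung and thyroid factor chosen after its values were seen, was low but higher in the clone, at 16.9, 15.4 and 42.2 against 83.2, 83.4 and 119.9 (2.03, adjusted p = 0.000495). CDX1 and CDX2, intestinal factors, had no read in any library.

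Of 7 mesenchymal transition factors, 5 were tested, of which 1 was higher and 2 were lower, with a median of 0.067. The number that passed is close to the share over all tested genes, 57.6%. SNAI2, which encodes SLUG and is also expressed by basal keratinocytes, was the highest of them, at 1683, 1739 and 1670.3 against 1705, 1879.8 and 1755 normalized counts, and did not pass (0.067, adjusted p = 0.38). The genes that passed were chosen after their values were seen. TWIST1 was higher (2.29, adjusted p = 0.000706), and ZEB1 (-1.25, adjusted p = 0.0104) and ZEB2 (-0.93, adjusted p = 0.00369) were lower, all with means under 100 normalized counts. None of the 4 neuroendocrine and tuft factors reached a mean of 10. POU2F3, the tuft cell factor, held 17 reads over the KYSE70 libraries and 1 over those of NRF2null-KYSE70.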
